A study of Mus musculus with 81 samples.

Results

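RLTR13 is the name under which RepeatMasker lists a set of long terminal repeats (LTRs) of the ERVK class of mouse endogenous retroviruses (mERVs). Its loci were chosen by name alone: every locus of the deposited mERV tables whose species name begins with RLTR13 was taken, a species being the name that RepeatMasker gives to a repeat. This gave 9499 of 970384 LTR loci (0.979%) and 23 of 680 species, in subtypes lettered A to G, on 21 chromosomes and over 6154.76 kb of the GRCm38 genome. RNA was measured in 62 libraries and methylated DNA in 19 libraries of E18.5 fetal testicular cells from OG2 mice, all of which carried an EGFP transgene driven by the promoter and distal enhancer of Pou5f1 (Oct4), so that EGFP was expressed in germline cells. The F0 dams drank water with 50 nM tributyltin (TBT) or with the DMSO vehicle, and their F1 fetuses and the F3 fetuses bred from them without further exposure were collected. Cells were sorted by FACS into the P4 and P5 populations, both EGFP-positive germline cells that differ in side scatter, and the P6 population of EGFP-negative somatic cells. The F1 RNA libraries were 5 DMSO and 7 TBT in P4, 4 DMSO and 7 TBT in P5, and 5 DMSO and 7 TBT in P6. Every F3 population had 4 DMSO and 5 TBT RNA libraries. DNA enriched with a methyl-CpG binding domain (MBD) protein came from P6 cells only, with 3 DMSO and 4 TBT libraries in F1 and 5 and 7 in F3. The labels do not state which libraries come from separate litters, so p-values measure only the spread between these libraries.

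A retroviral LTR holds a promoter, an enhancer and a polyadenylation signal, and most LTRs in the mouse genome are solitary copies left after recombination removed the internal part of the provirus. LTRs of RLTR13, RLTR13D5 above all, are known as enhancers of mouse trophoblast stem cells, where they are bound by Cdx2, Eomes and Elf5. In fetal male germ cells, LTR elements are silenced again at this stage by DNA methylation that piRNA and its Piwi proteins guide to them.

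Sequences of 5 loci are shown because they carry the results below: the locus with the highest mean level outside genes in F1 P4 and P5 and F3 P4 DMSO cells (D3A1), the locus that separated TBT from DMSO in F1 P5 cells (C3), and 3 loci that were higher in P5 than in P4 cells (A, C2 and D6). Each run is the GRCm38 reference on the plus strand, up to 300 bases from the first base of the locus, since the tables do not give the orientation of the LTR. Capitals mark CpG sites, where vertebrate DNA is methylated.
RLTR13A at chr4:101344647-101344946: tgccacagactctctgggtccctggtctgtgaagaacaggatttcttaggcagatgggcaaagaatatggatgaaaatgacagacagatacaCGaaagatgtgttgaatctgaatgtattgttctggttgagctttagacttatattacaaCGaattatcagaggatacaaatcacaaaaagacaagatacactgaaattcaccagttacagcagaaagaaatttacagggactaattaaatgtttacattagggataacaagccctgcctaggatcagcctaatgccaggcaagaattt
RLTR13C2 at chr7:25265887-25266186: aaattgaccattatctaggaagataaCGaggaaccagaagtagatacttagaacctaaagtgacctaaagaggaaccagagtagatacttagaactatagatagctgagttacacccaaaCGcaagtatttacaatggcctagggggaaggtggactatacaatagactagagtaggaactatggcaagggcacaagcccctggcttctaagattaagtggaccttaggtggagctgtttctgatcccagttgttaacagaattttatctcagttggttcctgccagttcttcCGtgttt
RLTR13C3 at chr6:124783420-124783719: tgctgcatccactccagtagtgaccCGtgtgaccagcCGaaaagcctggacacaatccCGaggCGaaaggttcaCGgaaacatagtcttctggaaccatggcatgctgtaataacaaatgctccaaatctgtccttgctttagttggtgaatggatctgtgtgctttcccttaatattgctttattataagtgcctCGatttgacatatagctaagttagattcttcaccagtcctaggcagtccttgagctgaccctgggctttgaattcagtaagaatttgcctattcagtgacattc
RLTR13D3A1 at chr13:99852405-99852704: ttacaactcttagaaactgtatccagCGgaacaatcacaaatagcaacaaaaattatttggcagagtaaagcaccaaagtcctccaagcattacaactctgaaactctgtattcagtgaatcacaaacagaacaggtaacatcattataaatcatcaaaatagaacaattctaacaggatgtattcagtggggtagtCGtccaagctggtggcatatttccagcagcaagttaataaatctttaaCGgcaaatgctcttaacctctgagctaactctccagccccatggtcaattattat
RLTR13D6 at chr3:96069250-96069481: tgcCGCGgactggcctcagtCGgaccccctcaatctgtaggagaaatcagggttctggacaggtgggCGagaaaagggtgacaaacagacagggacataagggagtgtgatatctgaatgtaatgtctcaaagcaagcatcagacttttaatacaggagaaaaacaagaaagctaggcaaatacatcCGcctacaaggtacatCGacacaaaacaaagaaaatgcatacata
The A, C3 and D6 runs begin with TG, the first 2 bases of an intact LTR, and of these the A and C3 loci end with CA. The printed runs hold 2 (A), 3 (C2), 6 (C3), 3 (D3A1) and 6 (D6) CpG sites.

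Subtype D had 3424 loci in 9 species, B had 2015, C had 1686, G had 868, A had 806, E had 602 and F had 98. The species with most loci per letter were A3 (243), B1 (1027), C2 (844), D6 (805), E (602), F (98) and G (868). Of all RLTR13 loci, 7312 (77.0%) lay outside annotated genes, 1934 in introns and 253 touched an exon, whereas 64.5% of all LTR loci lay outside genes. The median length was 853 bp for A, 844 bp for B, 795 bp for C, 785 bp for D and 837.5 bp for F, but 504 bp for E and 245 bp for G. E and G also differed in their surroundings: 72.5% of G loci and 41.7% of E loci lay within 50 bp of an annotated internal part of a retrovirus (most often ETnERV-int for G and ETnERV2-int for E), against 20.5% for A and 6.12% to 10.9% for the other letters.

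Among loci of 700 to 1100 bp, near the length of a whole LTR, 72.9% of the 5632 RLTR13 loci began with TG and ended with CA, against 15.5% of the 32681 other LTR loci of that length. The median CpG density was 0.93 sites per 100 bases over RLTR13 and 0.63 over the other LTR loci, but 2.19 in B2, 1.94 in B3 and 1.35 in B1, and 0.49 in D1. The letters TATAAA, the core of a TATA box, stood on either strand in 57.9% of the RLTR13 loci and in 47.4% of the others, with 97.5% in D3A1, 95.7% in A3, 95.0% in G and 93.0% in C2 at the upper end and 8.0% in B2 at the lower. The polyadenylation signal AATAAA stood on either strand in 79.2% against 62.2% of loci, with 99.2% in D5 and 5.2% in B2. The 2 words can share bases. The octamer ATTTGCAT, the word that Oct proteins recognise, was present on either strand in 25.9% of D5 loci, in 2.93% of all RLTR13 loci and in 3.65% of the other LTR loci. A match of letters is a description of the sequence only.

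How well reads can be placed differed between species. The median share of 75-base words (the read length) that occur only once in the genome was 100% in D2 and D3, 86.4% over RLTR13, 39.8% in A3, 14.5% in A2 and 6.88% in C3. How the authors' counting treated reads that map to several places is not stated in the sources used here, so values of single A2 or C3 loci are less certain than those of D loci, except where a locus is unique, as the printed C3 locus is (99.9% of its words).

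**Figure D1:**
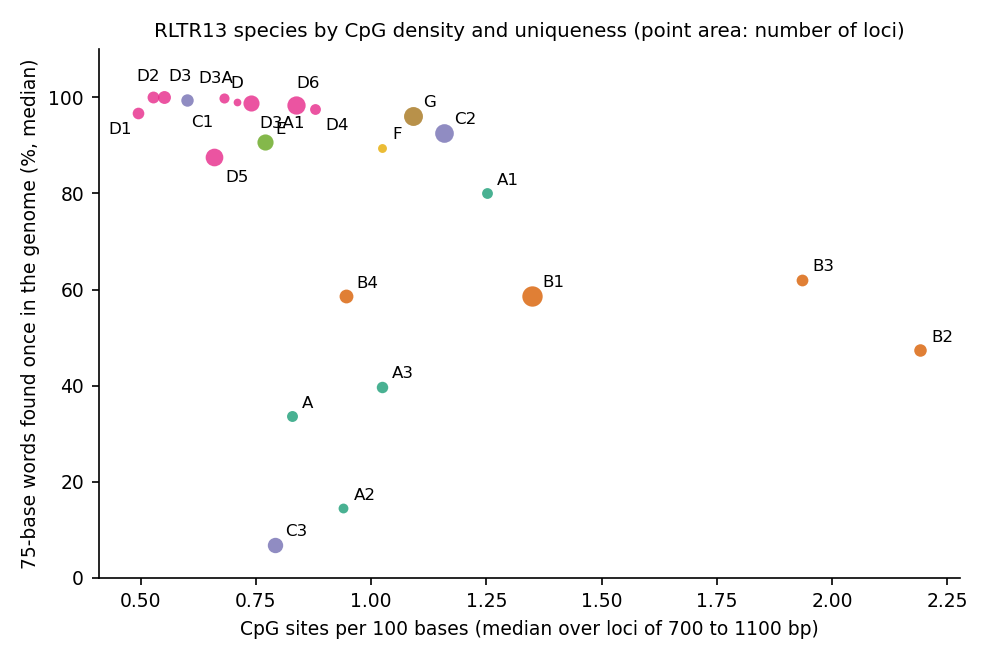
Median number of CpG sites per 100 bases (horizontal axis) against the median percentage of 75-base words found once in the genome (vertical axis) for the 23 RLTR13 species, over loci of 700 to 1100 bp, with the point area showing the number of loci and the colour the subtype letter. B2 and B3 sit at the right with 2.19 and 1.94 CpG sites per 100 bases, and C3 and A2 at the bottom with 6.88% and 14.5% unique words.

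RNA values are CPM (read counts relative to the reads at LTR loci of the library, on the scale of 1e6 reads) after scaling by the authors, per locus or summed over loci. In the F3 P6 DMSO libraries, for example, all LTR loci summed to 988786 to 1018210 CPM. A level outside genes is therefore relative to LTR signal, most of it inside genes, and can rise where the signal inside genes falls. The F1 and F3 tables, and the P6 and germline tables, were normalized separately, so levels across them are set side by side with no test. LTR loci held 246520 to 8161548 reads per RNA library, the 4 lowest of them F3 germline libraries with 246520 to 1606422. In the marker check, the 11 germ cell genes that hold LTR loci summed to 9300 to 22304 CPM in F1 P4 and P5 cells and to 24.7 to 50.0 in F1 P6 cells. In F3 P6 cells it ranged from 14.4 to 242. Of the F3 germline libraries, 5 stood apart with sums of 187 to 2482 CPM, against 7973 to 18609 in the other 13. They were P4 TBT replicates 5 and 9, P5 DMSO replicates 1 and 2 and P5 TBT replicate 5, and they include the 4 with fewest reads. In these 5 libraries, 11.4% and 12.1% (P4) and 23.5% to 31.1% (P5) of all LTR signal lay outside genes, against 2.05% to 5.10% and 6.06% to 11.9% in the others. The sum over 6 Sertoli cell marker genes was 0 to 51.9 CPM in the F3 germline libraries and 931 to 1283 in F3 P6 cells. The marker sum of P5 TBT replicate 5 lay within the range of F3 P6 cells, which goes against its label, and those of the other 4 lay above that range. Some F3 germline counts and levels are given with and without these 5. Those given once include all F3 germline libraries and may change without the 5. In F1 P6 cells, TBT replicates 7 and 8 stood apart from the other 5, with 1224 and 1179 CPM at RLTR13 loci outside genes against 104 to 247, and with 6.79% and 6.95% of all LTR signal outside genes against 1.00% to 1.82%. Their germ cell marker sums were 50.0 and 41.7 CPM, against 29.5 to 43.9 in the other 5 libraries. The part of genomic DNA or of other RNA in these 2 libraries and in the 5 of F3 was not tested, and results that rest on replicates 7 and 8 are given with and without them.

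Most RLTR13 signal came from inside genes. RLTR13 loci together gave a median of 5008 CPM in F1 P4 DMSO libraries, 4986 in P5 and 4642 in P6, or 0.484%, 0.536% and 0.465% of all LTR signal. Although 77.0% of the loci lie outside genes, these gave a median of 6.07% of the RLTR13 signal in P4, 13.4% in P5 and 2.95% in P6 cells of the F1 DMSO group. Of the signal of all LTR loci, those outside genes gave less, 2.22%, 5.07% and 1.34%. In the F3 DMSO group the medians were 7.10%, 28.0% and 2.83% for RLTR13 and 3.96%, 16.1% and 1.34% for all LTR loci, with 36.0% and 42.9% of the RLTR13 signal in P5 DMSO replicates 1 and 2 and 20.05% and 15.03% in 3 and 4. Reads in an intron can come from the unspliced transcript of the gene, so levels below are given for loci outside genes unless said otherwise. Fewer cells of a type and less RNA per cell cannot be told apart in these bulk libraries.

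Outside genes, the summed level was lowest in P6 cells, and in P5 cells it was above that in P4 cells. In F1 it ranged from 273 to 377 CPM (median 308) in the 5 P4 DMSO libraries, from 524 to 760 (median 666) in the 4 P5 DMSO libraries, and from 90.5 to 187 (median 137) in the 5 P6 DMSO libraries, with no overlap between P4 and P5. In F3 it ranged from 287 to 870 (median 589), from 848 to 3431 (median 2147) and from 108 to 134 (median 125), respectively. There the lowest P5 library lay just under the highest P4 library, and the 2 P5 DMSO libraries with low marker sums were the highest (3431 and 2946, against 1349 and 848 in replicates 3 and 4). The TBT libraries held 259 to 347 (median 303) in F1 P4, 634 to 1071 (median 758) in F1 P5 and 104 to 1224 (median 192, or 187 without replicates 7 and 8) in F1 P6 cells. In F3 the TBT medians were 551, 1067 and 120 CPM, each inside the range of the DMSO libraries. RLTR13 took 1.19% to 1.64% of all LTR signal outside genes in F1 P4 cells, 1.34% to 1.53% in F1 P5 cells, and 0.811% to 1.81% in F1 P6 cells (at most 1.35% without TBT replicates 7 and 8). In F3 the ranges were 0.922% to 1.44% in P4, 1.33% to 1.53% in P5 and 0.776% to 1.04% in P6 cells.

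**Figure D2:**
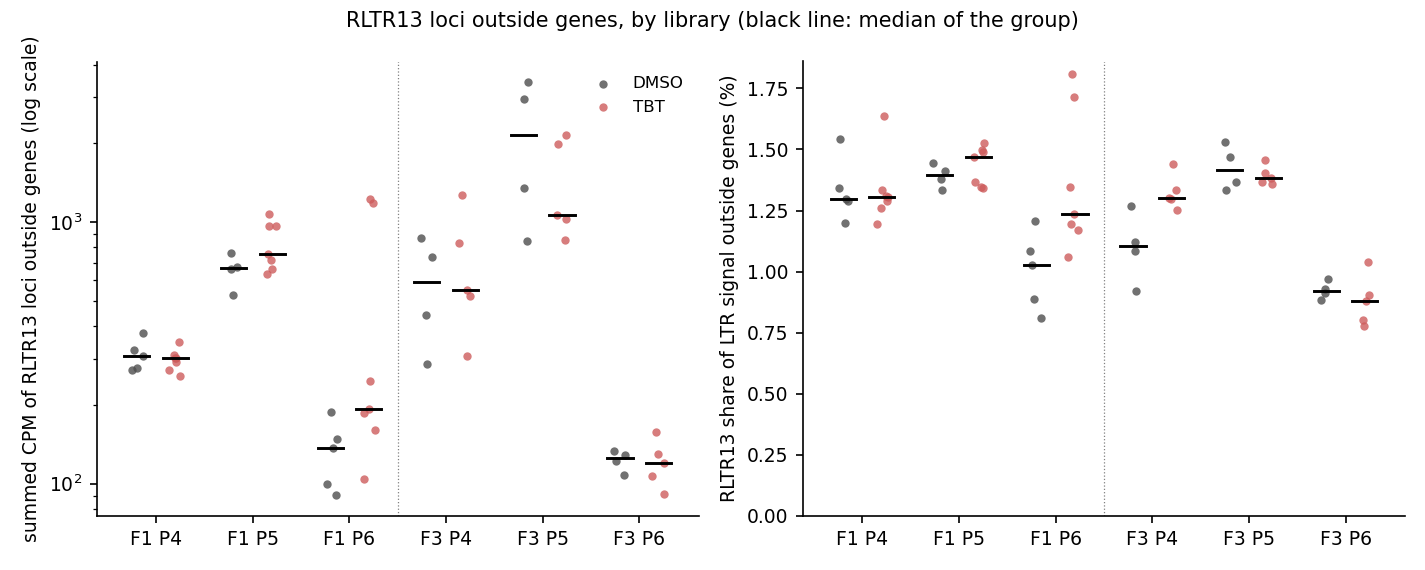
Summed CPM of the 7312 RLTR13 loci outside genes (left, log axis) and their share of all LTR signal outside genes in percent (right) in each RNA library, by generation, population and exposure (grey DMSO, red TBT), with the group median as a black line. The F1 P5 DMSO libraries (524 to 760 CPM) lie above the F1 P4 ones (273 to 377 CPM), and F1 P6 TBT replicates 7 and 8 stand at 1224 and 1179 CPM.

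Reads were thinly spread over the loci. Over all 62 RNA libraries, 4406 of the 7312 loci outside genes (60.3%) had a read in any library, 2906 had none and 1 had reads in every library. By population, 966 (13.2%) had a read in any F1 P4 library, 2960 (40.5%) in F1 P5 and 1868 (25.5%) in F1 P6 (845, or 11.6%, without TBT replicates 7 and 8), and 893 (12.2%), 2381 (32.6%) and 489 (6.69%) in F3. A mean of at least 5 units, a unit being the median value of 1 read (the filter used in all tests of loci), was reached outside genes by 42 (P4), 126 (P5) and 19 (P6) loci in F1, and by 110, 260 and 26 in F3. These loci lay nearer to genes than the rest, at a median distance of 22.2, 20.9 and 12.9 kb from a protein-coding gene in F1 and 28.7, 25.8 and 9.59 kb in F3, against 65.5 to 67.5 kb for the loci below the filter. A locus near a gene can hold reads of transcripts that start or end outside the annotated gene, which was not tested.

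Per length, D was the highest letter in the germline DMSO libraries of both generations, apart from F in F3 P5 cells, which rested on P5 replicates 1 and 2. In F1 P4 DMSO libraries D stood at 0.113 CPM per kb of loci, against 0.0561 ± 0.017 (SD, n = 5) for A, 0.0502 for C, 0.0426 for E, 0.0398 for F, 0.0277 for B and 0.0274 for G. All LTR loci outside genes stood at 0.108 CPM per kb. In F1 P5 DMSO libraries D stood at 0.176, E at 0.150, G at 0.134, C at 0.132, A at 0.119 ± 0.020 (n = 4), B at 0.0910 and F at 0.0706 ± 0.10, all below the 0.218 of all LTR loci. The neighbours E, G, C and A did not differ beyond their spread, and F rested on 65 loci, of which few had reads. In the TBT libraries D was the highest letter in all 4 germline groups, at 0.110 and 0.213 CPM per kb in F1 P4 and P5 and at 0.236 and 0.392 in F3 P4 and P5 cells, where F was the lowest letter in P5 (0.146). Without the libraries with low marker sums D stood at 0.167 and 0.426 in F3 P4 and P5 TBT cells and was still the highest letter.

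In P6 DMSO libraries the order was different, with A highest (0.0546 ± 0.020 in F1 and 0.0647 ± 0.014 in F3), above F (0.0378 and 0.0411), and B lowest (0.0160 and 0.0141). D, at 0.0290 and 0.0275, stood below the 0.0602 and 0.0615 of all LTR loci. In F1 P6 TBT libraries F stood at 0.148 CPM per kb, G at 0.124 and A at 0.110, and without replicates 7 and 8 at 0.0790 ± 0.049, 0.0677 ± 0.010 and 0.0464 ± 0.021 (n = 5), so A was not the highest letter there. In F3 P6 TBT libraries it was again A (0.0633), above F (0.0576). In F3 P5 DMSO libraries F (0.711 ± 0.70), D (0.629), A (0.450 ± 0.26), G (0.441), C (0.386), E (0.386) and B (0.249) stood beside 0.680 for all LTR loci, and the spread between the 4 libraries was as large as most of these gaps. With replicates 3 and 4 alone the means were 0.289 for D, 0.259 for E, 0.238 for G, 0.234 for A, 0.203 for C, 0.201 for F and 0.158 for B, beside 0.376 for all LTR loci. B, the letter with the highest CpG density, was the lowest or next to lowest letter in each of the 6 DMSO groups.

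**Figure D3:**
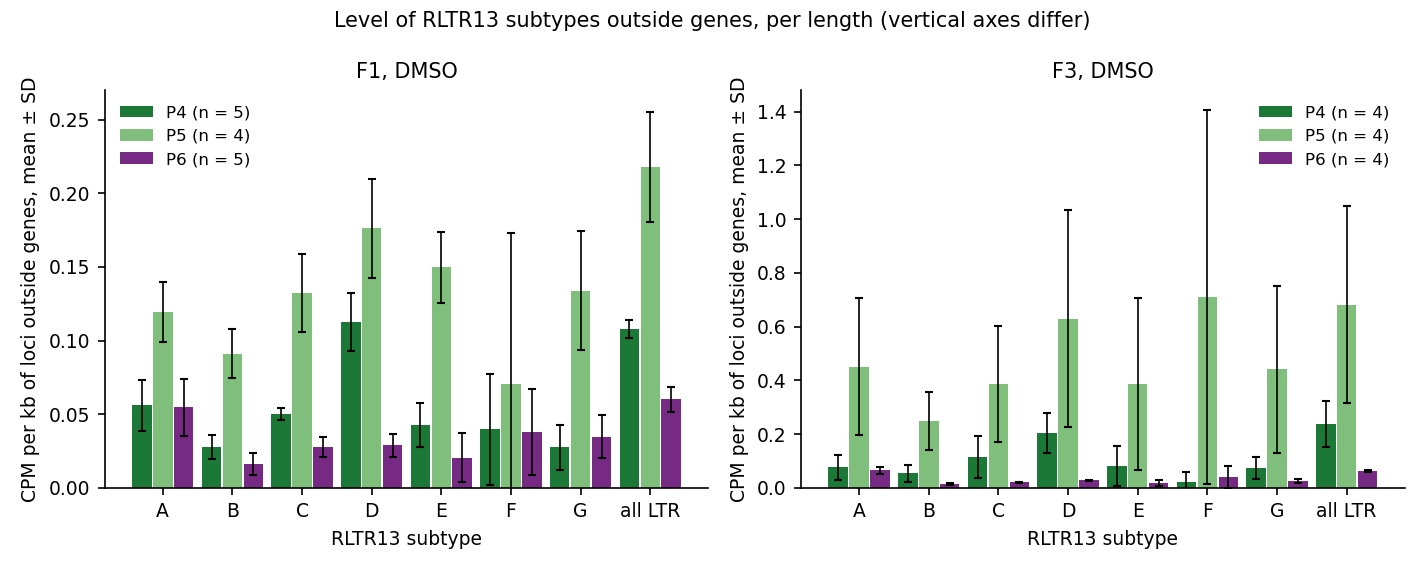
Level of RLTR13 loci outside genes per subtype letter and of all LTR loci, in CPM per kb (mean ± SD), for the P4, P5 and P6 DMSO libraries of F1 (left) and F3 (right), with vertical axes that differ between the panels. D stands highest among the letters in F1 P4 and P5 cells (0.113 and 0.176 CPM per kb), and A in the P6 DMSO libraries.

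In F1 P4 cells the level of D came mostly from few species and few loci, with 7 of the 2548 D loci outside genes giving 50% of the D signal there, against 34 in P5 cells. RLTR13D3A1 was the highest RLTR13 species per length in all 6 DMSO groups, at 0.487 and 0.526 CPM per kb in F1 P4 and P5 and 0.681 and 1.93 in F3, and in P6 cells at 0.0933 and 0.122. In F3 P5 replicates 3 and 4 alone its mean was 0.855 CPM per kb, again the highest. D3 stood at 0.220, 0.284, 0.252 and 1.00 CPM per kb in the same germline groups, A at 0.284 in F1 P5, and D3A at 0.359 in F3 P4. With F3 P5 replicates 3 and 4 alone the mean of D3 was 0.559 CPM per kb. A D3A1 locus at chr13:99852405-99853195, 45.3 kb from Cartpt, which encodes a neuropeptide, gave 52.8% of the D3A1 signal and 14.7% of all RLTR13 signal outside genes in F1 P4 DMSO cells. It stood at 27.3, 42.2, 38.4, 74.9 and 47.1 CPM in the 5 F1 P4 DMSO libraries and at 29.7, 29.9, 27.7 and 24.9 in the 4 P5 DMSO libraries, and it had no read in any P6 library of either generation. The ranges of P4 and P5 overlap. In F3 the values were 81.4, 74.3, 19.7 and 71.5 CPM in P4 and 44.8, 0, 77.5 and 31.4 in P5 DMSO libraries, where its mean of 38.4 CPM was below those of the D3 locus described next (48.2), the printed D6 locus (45.5) and the printed A locus (40.4). That order rested on P5 replicates 1 and 2, which had low marker sums. In replicates 3 and 4 the D3 locus stood at 43.2 and 38.6 CPM, the D6 locus at 15.4 and 10.4 and the A locus at 12.03 and 6.0. Without the D3A1 locus the mean of D in F1 P4 DMSO cells was 141 instead of 187 CPM.

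A D3 locus at chr4:145844932-145846045, 22.7 kb from the zinc finger gene Zfp986, gave 61.2% of the D3 signal in F1 P4 DMSO cells. It stood at 19.4, 12.3, 29.8, 16.01 and 29.96 CPM there, at 18.4, 23.3, 21.9 and 24.7 in P5, and at no more than 1.90 in any P6 library, but only 28.3% of its 75-base words are unique. The third locus by level in F1 P4 cells, a D6 locus at chr18:8136606-8137327, 208 kb from Wac, stood at 4.93 to 8.09 CPM in the 5 F1 P4 DMSO libraries. In F3 P4 TBT cells it stood at 104 and 133 CPM in replicates 5 and 9, the 2 libraries with fewest reads there, and at 12.3 to 16.5 in the other 3. The signal of P5 cells was less concentrated: 34 loci sufficed for 50% of the RLTR13 signal outside genes in F1 P4 DMSO cells, 117 in P5 and 32 in P6, and 31, 79 and 23 in F3.

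The locus with the highest mean in P6 DMSO cells outside genes was another. A C1 locus of 179 bp at chr1:93792215-93792393, 0.183 kb from Dtymk, a kinase of dTTP synthesis, stood at 6.50 to 10.3 CPM in F1 and 4.96 to 13.7 CPM in F3 DMSO libraries of P6 cells, against means of 0.229 and 0.273 CPM in F1 P4 and P5. A G locus at chr4:41871314-41871513, none of whose words is unique, stood at 2.60 to 9.01 CPM in F1 P6 DMSO libraries and at 0 in all F3 P6 libraries. The printed A locus, which is also high in P5 cells, was next by mean among the loci described here, at 2.00 to 9.10 CPM (mean 5.66) in F1 and at 5.35, 15.8, 3.22 and 3.15 (mean 6.87) in F3 P6 DMSO libraries. An A2 locus at chr8:20129555-20130511 with no unique word stood at 0.859 to 2.89 and at 4.56 to 11.2 CPM in F1 and F3 P6 DMSO libraries. Inside genes, an 87 bp D6 locus in an intron of Smoc2, which encodes a secreted matrix protein, had means in P6 cells of 235 ± 16.8 (n = 5) and 194 ± 25.5 CPM (n = 4) against 2.49 and 2.82 in F1 P4 and P5.

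The highest germline loci inside genes were a pair of D3 loci in an intron of Ndufc2, a subunit of mitochondrial complex I, and a 51 bp C3 locus in an intron of Camta1, which encodes a calmodulin-binding transcription activator. The longer Ndufc2 locus stood at 189 ± 24.4 CPM in F1 P4 and 151 ± 21.5 in P5 DMSO cells, but also at 121 ± 16.8 in P6 cells. The Camta1 locus stood at 180 ± 33.5, 144 ± 17.9 and 17.4 ± 4.38 CPM. Intronic loci also shared values: 62.6% of the tested intronic RLTR13 loci in F1 P4 cells, 24.7% in P5 and 33.0% in P6 had exactly the same read counts in all libraries of the population as another tested LTR locus, against 2.38%, 2.38% and 0% of those outside genes. Whether these are the same reads was not tested. For all intronic LTR loci the percentages were 71.9%, 39.9% and 48.8%.

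P5 and P4 cells of the DMSO group were compared within each germline table. The test was limma with a trended variance on log2(CPM + 1 unit), over all LTR loci, with a false discovery rate (FDR) of 0.05 by the Benjamini-Hochberg method. In F1, 43 of 570 RLTR13 loci tested were higher in P5 and 14 were lower. Over all 101401 loci tested, 12.6% passed, 7.53% higher and 5.08% lower, so the count of higher RLTR13 loci was at the background and that of lower ones below it. The median difference was -0.05 (log2) over RLTR13 loci and -0.10 over all loci, and rescaling each library to the same total, which moved the median of all loci to 0.02, gave 49 higher and 8 lower, where 8.82% of all loci were higher and 2.49% lower. P4 and P5 libraries carry shared numbers in the labels, but the sources do not state whether an equal number marks one cell suspension. With that number as a replicate block, 58 of 567 RLTR13 loci were higher and 49 lower (18.9%, against 20.6% of all loci). With a minimum mean of 20 units in place of 5 the balance turned, with 9 higher and 21 lower of 210 loci (14.3%, against 21.4% of all loci).

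By position, outside genes 12 of 68 RLTR13 loci tested were higher and 1 was lower, where 18.4% and 1.29% of all loci outside genes were higher and lower, with median differences of 0.53 over RLTR13 and 0.67 over all, so this count too was near the background. In introns 25 of 444 were higher and 12 lower, where 6.95% and 5.34% of all intronic loci were. Of the 58 that touch an exon 6 were higher and 1 was lower, where 7.82% and 4.22% of all such loci were. By species, 7 of 43 tested loci of B1 were higher and 1 lower, 7 of 51 of C2 were higher and none lower, and 6 of 93 of D3A1 were higher and 1 lower. Of A3 3 of 16 and of D5 3 of 28 were higher and none lower, and E had 3 higher and 1 lower of 36. G had 2 higher and 3 lower of 38, D6 1 and 3 of 34, and D2 0 and 2 of 21. These numbers are small and describe how the calls were spread, with no test between species. No locus of F was called, out of 7 tested.

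The locus of the printed C2 sequence, chr7:25265887-25266414, 1.29 kb from Cic, which encodes a transcriptional repressor, stood at 0, 1.07, 0, 0 and 0 CPM in the F1 P4 DMSO libraries and at 5.74, 5.60, 4.13 and 4.37 in the P5 ones. The groups did not overlap, and the difference was 3.99 (SE 0.61, FDR 2.23e-05). In F3 it had no read in the 4 P4 libraries and stood at 0, 0, 8.02 and 0.462 CPM in P5. Another C2 locus at chr12:3171006-3171816, 75.6 kb from Rab10, a small GTPase gene, stood at 1.55, 3.74, 0.924, 0 and 2.29 CPM in P4 and at 28.9, 9.57, 5.68 and 11.9 in P5 (difference 3.14, SE 0.73, FDR 0.00355).

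The locus of the printed A sequence, chr4:101344647-101345512, 73.8 kb from the adenylate kinase gene Ak4, stood at 2.06, 2.40, 4.39, 3.45 and 1.37 CPM in F1 P4 and at 16.5, 18.2, 26.0 and 10.1 in P5 DMSO libraries (difference 2.62, SE 0.42, FDR 4.48e-05). It gave 33.4% of the subtype A signal outside genes in F1 P5 DMSO cells. In F3 it stood at 2.83, 7.82, 0 and 11.2 CPM in P4 and at 41.9, 102, 12.03 and 6.0 in P5, where the groups overlapped. The printed D6 locus, chr3:96069250-96069481, 10.8 kb from Vps45, a vesicle trafficking gene, stood at 1.81, 0, 0.462, 0 and 1.37 CPM in F1 P4 and at 2.39, 6.54, 8.27 and 2.52 in P5 (difference 2.79, SE 0.59, FDR 0.00149). In F3 its P4 values were 7.35, 0.978, 1.97 and 4.91 CPM and its P5 values 75.3, 81.0, 15.4 and 10.4, again without overlap.

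The remaining higher loci outside genes were of B1, C2 (a locus on chromosome 7 and a pair on chromosome 2 without unique words), C3, D4 and D3A1 (2 loci), with differences from 1.53 to 3.04. The pair on chromosome 2 had equal means (0.890 CPM in P4 and 3.00 in P5) and the same difference. Its 2 calls may rest on the same reads, which was not tested. The single lower one was a D3 locus on chromosome 1, with means of 2.50 CPM in P4 and 0.443 in P5 (difference -2.27, FDR 0.0439). Inside genes, a C1 locus in an intron of Ptprk, which encodes a receptor tyrosine phosphatase, stood at 0.258, 0.534, 0.231, 0 and 0.229 CPM in P4 and at 4.30, 3.73, 5.34 and 2.69 in P5 (difference 3.21, FDR 4.53e-05), with 8.38 to 14.3 CPM in the P6 DMSO libraries. A D3A1 locus in an intron of Isoc2a had no read in the P4 DMSO libraries and 0.239, 3.97, 6.37 and 0.673 CPM in P5, at least 3.81-fold higher (FDR 0.00868), a call that was lost without P5 replicate 43-5 or 44-1. Lower in P5 were a D3A1 locus in an intron of Kyat3, a kynurenine aminotransferase gene, at 6.71, 7.20, 10.4, 8.62 and 7.09 CPM in P4 and 3.35, 3.97, 2.41 and 5.55 in P5 (difference -1.06, FDR 0.00298), and a G locus in an intron of Rnf180, a ubiquitin ligase gene, with means of 7.52 and 3.88 (difference -0.98, FDR 0.0168, lost without P5 replicate 44-1).

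A total over all loci of a species stays the same when a read is assigned to another copy of that species, unless the read was counted at more than 1 locus, whereas a total of loci outside genes can change. Over all loci of a species, 6 of the 23 RLTR13 totals were higher in F1 P5 than in P4 DMSO cells and 0 were lower by limma, where 34.4% of all species totals passed and 12.9% were higher. They were D (1.16), A1 (0.43), D5 (0.35), A (0.33), E (0.24) and C2 (0.22), all on the log2 scale. The direction depended on which loci were summed and the count on the scaling: with only the loci tested singly, 2 totals were higher and 5 lower (49.7% of all species totals passed), while a common total per library gave 13 higher (39% of all) and median-ratio scaling 12 (27.6% of all), with none lower. With the replicate block 7 were higher and 3 lower (52.3% of all). Outside genes, 15 of 23 totals were higher and none was lower, where 68.9% of all species totals were higher, with a median difference of 1.45 over RLTR13 and 1.06 over all species.

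The C2 total outside genes had the lowest p, with 20.5 ± 5.29 CPM in P4 (n = 5) and 75.8 ± 17.2 in P5 (n = 4), a difference of 1.88 (FDR 1.72e-06). B1, the species with most loci, stood at 2.77 to 11.6 CPM in P4 and at 28.1 to 49.9 in P5 (difference 2.36). The other species that were higher were B4 (2.95), A1 (2.90), D (2.73), G (2.40), D1 (2.25), E (1.85), D5 (1.56), A (1.51), B3 (1.45), C3 (1.37), D6 (1.29), B2 (0.98) and D2 (0.96). The 8 that did not pass included the 2 species with the highest level, D3A1 (0.17) and D3 (0.42), together with A2, A3, C1, D3A, D4 and F. More loci of each kind had reads in P5, for example 3.26% of the B1 loci outside genes in a P5 library on average against 0.671% in a P4 library.

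In F3, none of 663 RLTR13 loci tested passed for P5 against P4 by limma (0.00102% of all loci did), with 69 at an unadjusted p under 0.05 (8.01% of all loci were), of which 57 were higher. These counts include the 5 libraries with low germ cell marker sums. The likelihood ratio test of edgeR called 95 (14.3%, against 6.88% of all loci) and DESeq2 39 (5.88%, against 4.34%). The edgeR quasi-likelihood test called 0 (0.0224% of all loci), and limma called 12 of 683 without the 4 libraries with fewest reads (1.76%, against 1.55% of all loci). Without the 5 libraries with low germ cell marker sums, which leaves 2 P5 DMSO libraries, 21 of 626 were called, all higher in P5 (3.35%, against 1.85% of all loci). The totals over all loci gave 0 of 23 (1.18% of all totals passed), with B2 at the lowest p (0.89, SE 0.38, FDR 0.569). Outside genes 10 of 23 totals were higher in P5 by limma, where 29.7% of all totals were, with a median of 2.08 over RLTR13 and 1.49 over all species. They were F (5.38), A1 (4.99), D4 (4.77), B1 (3.43), D (3.17), A (2.83), C2 (2.73), G (2.50), B2 (2.39) and D3 (2.05). Without the 5 libraries only B1 (3.15), D4 (4.05) and F (4.15) passed, where 10.3% of all totals did, with medians of 1.61 over RLTR13 and 0.94 over all species. B1 stood at 4.52 to 25.4 CPM in P4 and at 49.9 to 116 in P5, and C2 at 2.95 to 71.2 and at 87.5 to 344, each without overlap.

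The F1 calls could be followed into F3, whose libraries are separate. Of the 43 loci higher in F1 P5 cells, 33 were tested in F3 and 27 of these (81.8%) had a difference above 0, as did 332 of all 663 RLTR13 loci and 37086 of all 98076 loci tested there. All 10 tested of the 12 higher loci outside genes had a difference above 0 there, with a median of 2.99, but so did 137 of the 176 RLTR13 loci and 9697 of all 13415 loci outside genes, with medians of 1.495 and 1.24. The filter took the mean of P4 and P5 libraries, so some loci could enter only through their reads in P5. It left out a B1 locus (means of 0 and 0.766 CPM in F3 P4 and P5 DMSO) and a D3A1 locus (0.685 and 0.115). The 10 include the C2 pair on chromosome 2, whose means are equal. Of the 14 lower loci, 10 had a difference below 0, as did 328 of all 663 RLTR13 loci and 60875 of all 98076 loci. The single lower locus outside genes stood above 0 there (0.37). Without the 5 F3 libraries with low marker sums, 36 of 39 higher loci, 9 of 10 higher ones outside genes and 6 of 13 lower loci kept their direction, where 61438 of all 99046 loci and 5456 of 9250 outside genes were above 0.

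**Figure D4:**
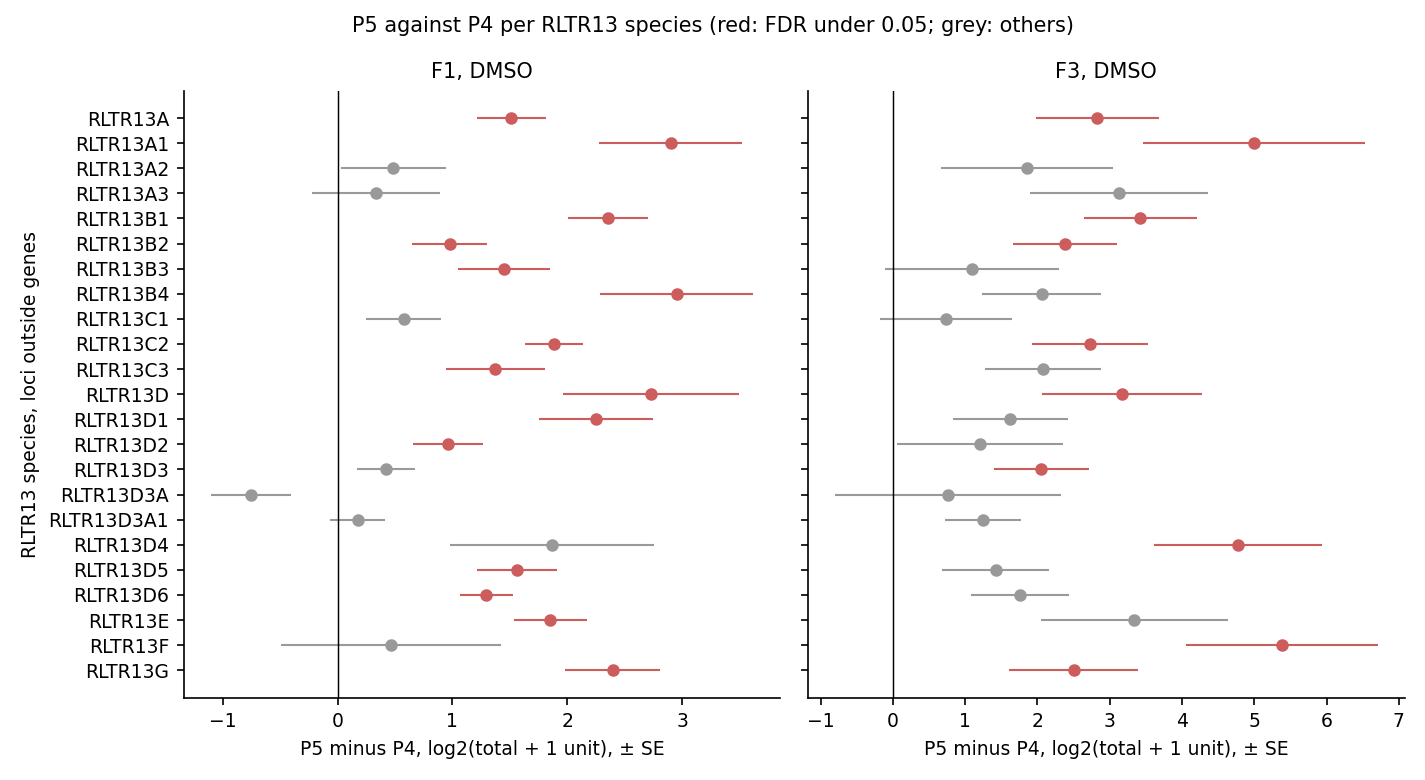
Difference between P5 and P4 DMSO cells in log2(total + 1 unit) ± SE for the loci outside genes of each of the 23 RLTR13 species, in F1 (left) and F3 (right), with species at FDR under 0.05 in red. In F1, 15 species are red, led by B4 (2.95) and A1 (2.90), and in F3 10 are, led by F (5.38), with all libraries included.

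TBT and DMSO were compared within each population and generation, to ask whether exposure of the F0 dams left a mark on RLTR13 RNA. Over both generations and the 3 populations, 2 RLTR13 loci passed. In F1 P4 cells 0 of 499 passed by limma (0% of all loci), with 50 at an unadjusted p under 0.05 (7.09% of all loci), of which 22 were higher, where 4002 of all 6496 such loci were, and none passed by the edgeR quasi-likelihood test or DESeq2. In F1 P5 cells 1 of 721 was higher (0.0106% of all loci passed), and of the 71 at p under 0.05, 57 were higher in TBT, as were 5672 of the 8421 such loci over all LTR species (6.89% of all). In F1 P6 cells 0 of 441 passed (0.00341% of all), with 14 at p under 0.05 (3.68% of all), and by the edgeR quasi-likelihood test and DESeq2 also 0. In F3 P4 cells 0 of 534 passed (0% of all), with 18 at p under 0.05 (1.65% of all loci). This count at p under 0.05 includes the TBT libraries with low marker sums and may change without them. In F3 P5 cells 0 of 775 passed (0% of all), with 21 at p under 0.05 (1.01% of all loci), and without the 3 libraries with low marker sums 0 of 734, with 50 at p under 0.05 (4.64% of all loci). In F3 P6 cells 1 of 530 passed, which was lower (0.0343% of all), with 45 at p under 0.05 (7.96% of all loci). The quasi-likelihood test and DESeq2 gave 0 in F3 P4 and P5 cells, but the likelihood ratio test of edgeR called 51 of the 775 in P5 (9 up and 42 down with TBT, or 6.58%, against 3.03% of all loci).

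The locus that passed in F1 P5 cells was that of the printed C3 sequence, chr6:124783420-124784295, 3.69 kb from Lrrc23, which encodes a protein of the sperm flagellum. It had no read in the 4 DMSO libraries and stood at 2.38, 3.07, 2.53, 2.83, 8.14, 4.39 and 3.91 CPM in the 7 TBT libraries, or 14 to 39 reads each. The groups did not overlap, the difference was 4.38 (SE 0.47, FDR 0.000642), and the level was at least 6.38-fold higher in TBT, taking a floor of 3 reads per DMSO library. The TBT libraries of F1 P5 cells had reads at more loci outside genes in general, without overlap, at 8.99% to 16.1% of RLTR13 loci against 4.43% to 7.48% in DMSO and at 8.49% to 14.5% of all LTR loci against 4.86% to 7.52%. The part of this shift in the result was not tested. The TBT labels are 45-3, 45-4, 45-5, 47-1, 47-3, 47-4 and 47-5, and the DMSO labels 43-4, 43-5, 44-1 and 48-4. Whether labels with the same first number come from 1 litter is not stated, so these libraries may not be independent. The locus kept its call under all 19 alternatives in which it was tested. The locus was not silent elsewhere: it stood at 1.81 CPM in F1 P4 DMSO replicate 43-4 and at 0 in the other F1 P4 libraries, and at 6.57 CPM in F1 P6 TBT replicate 7. In F3 P5 cells it stood at 0.985, 0.857, 0 and 2.77 CPM in DMSO and at 0, 10.3, 2.25, 0 and 7.91 in TBT libraries, with overlap. The test of the TBT difference in P5 minus that in P4 did not pass for this locus (4.69, SE 0.91, FDR 0.147), nor for any RLTR13 locus in either generation by limma (0.000986% of all loci passed in F1 and 0% in F3).

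The locus that passed in F3 P6 cells was a D6 locus at chr13:4600237-4601166, in an intron of Akr1e1, which encodes an aldo-keto reductase. It stood at 13.1, 9.68, 10.4 and 18.52 CPM in the DMSO libraries and at 2.21, 4.41, 3.34, 4.55 and 3.41 in the TBT libraries, without overlap and 3.60-fold lower in TBT (difference -1.79, SE 0.23, FDR 0.00115). In F1 P6 cells it stood at 12.99 to 18.46 CPM in DMSO and at 7.06 to 30.8 (median 14.97) in TBT libraries, which overlap. DESeq2 gave no adjusted p for it.

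**Figure D5:**
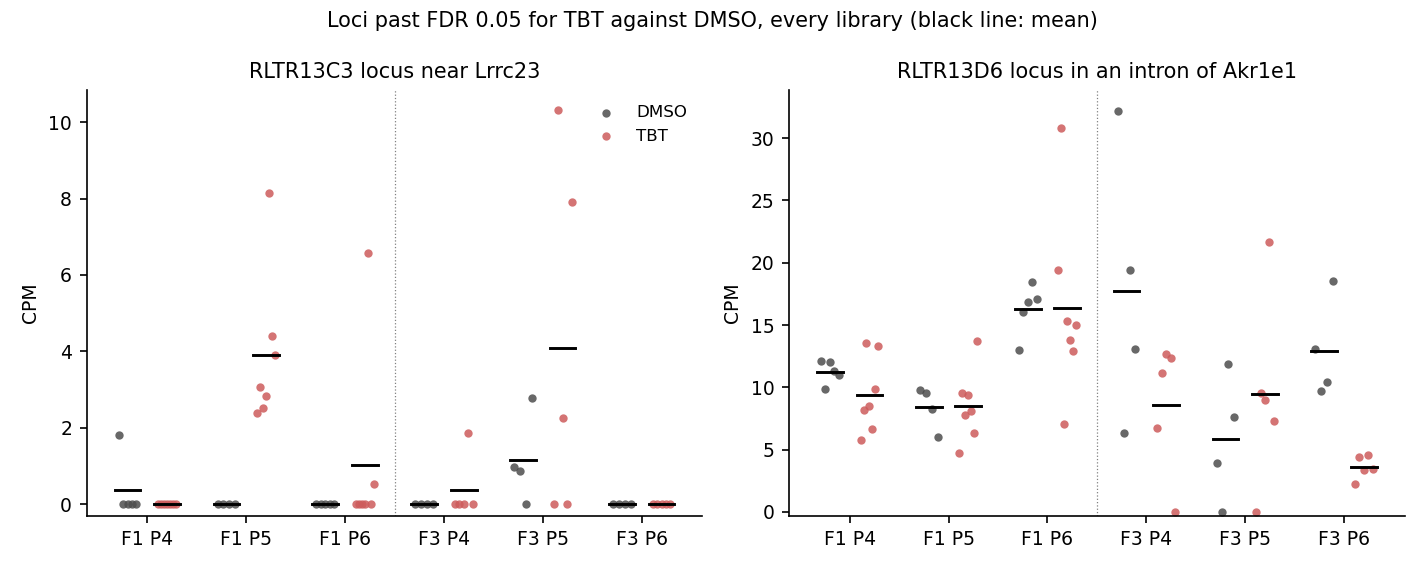
CPM of the RLTR13C3 locus near Lrrc23 (left) and of the RLTR13D6 locus in an intron of Akr1e1 (right) in every RNA library, by generation, population and exposure (grey DMSO, red TBT), with the group mean as a black line. The C3 locus is at 0 in the 4 F1 P5 DMSO libraries and at 2.38 to 8.14 CPM in the 7 TBT libraries, and the D6 locus is at 9.68 to 18.52 CPM in F3 P6 DMSO and 2.21 to 4.55 CPM in TBT libraries.

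Other loci had the lowest p of their population in one direction without passing. A D3A1 locus at chr13:73651511-73652379, 1.67 kb from Tert, which encodes the catalytic subunit of telomerase, did so among the loci higher in TBT in F3 P4 and in F3 P5 cells. It stood at 1.70, 0, 0 and 1.17 CPM in P4 DMSO and at 79.9, 2.99, 8.21, 3.03 and 5.44 in P4 TBT libraries (difference 3.71, SE 1.21, FDR 0.870). In P5 it stood at 1.97, 0, 0 and 3.92 CPM in DMSO and at 47.8, 16.9, 4.33, 28.0 and 4.39 in TBT libraries (difference 3.86, SE 1.46, FDR 1.0). Neither pair of groups overlapped, but the highest value in each was that of TBT replicate 5, which held 833449 and 246520 reads. In F3 P6 cells the ranges were 1.59 to 10.1 and 2.04 to 5.70 CPM, and in F1 P4 0 to 7.78 and 0 to 9.25.

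In F1 P4 cells, a D6 locus at chr13:50906627-50907465 stood at 0 to 1.39 CPM in DMSO and 0.853 to 5.25 in TBT libraries (difference 2.13, FDR 0.584), and a D3A1 locus in an intron of Kcnk1, a potassium channel gene, at 3.20 to 4.85 and 0.768 to 3.25 (difference -1.17, FDR 0.592). In F1 P5 cells a D3A1 locus in an exon of the long noncoding gene Gm49492 stood at 3.87 to 7.92 CPM in DMSO and 2.20 to 4.24 in TBT (difference -0.97, FDR 0.360). In F1 P6 cells an A3 locus in Armh3 (0.73) and a D3 locus in Ctnna2, a cell adhesion gene (-0.84), both had an FDR of 0.999.

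In F3 P4 cells a D1 locus in an intron of the sulfotransferase gene Sult2a1 stood at 2.34 to 8.76 CPM in DMSO libraries and at 0 in 4 of the 5 TBT libraries (difference -3.69, FDR 0.870). In F3 P5 cells a D3A1 locus at chr11:61462420-61463355 stood at 8.86, 136, 0 and 1.39 CPM in DMSO and at 0 in all 5 TBT libraries (difference -4.09, FDR 1.0), so that its mean rests on DMSO replicate 2, which held 1606422 reads. In F3 P6 cells an A3 locus at chr5:108954324-108955116 stood at 0 to 2.48 CPM in DMSO and 1.65 to 3.72 in TBT (difference 2.41, FDR 0.238).

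No species total passed for TBT in any population (0 of 23 in each, and 0% of all totals), and before adjustment 3 totals of P4, 3 of P5 and 1 of P6 had a p under 0.05 in F1, against 1, 0 and 3 in F3. The unadjusted counts include all libraries and stand without the share over all species totals, so no result is read from them. DESeq2 and the edgeR tests also called none of the RLTR13 totals. The totals with the lowest p were B4 in F1 P4 (0.17, FDR 0.448), D3A in F1 P5 (0.28, FDR 0.901), G in F1 P6 (0.16, FDR 0.735), F in F3 P4 (-1.38, FDR 0.516), D3A in F3 P5 (-1.29, FDR 0.998) and D3 in F3 P6 cells (-0.12, FDR 0.317). In F1 P5 cells all 23 totals of loci outside genes had a difference above 0, as did 576 of all 663 species, and the medians were 0.31 over RLTR13 and 0.26 over all. The largest of these by p was A1 (1.60, SE 0.46, FDR 0.270). In F1 P6 cells the medians were 1.25 and 1.14 with replicates 7 and 8 and 0.35 and 0.30 without them, and no RLTR13 total passed either way. In F3 P4 cells the medians were 0.49 over RLTR13 and -0.05 over all species, and -0.03 and -0.31 without replicates 5 and 9 of TBT. In F3 P5 cells they were -0.56 and -0.39, and -0.19 and -0.06 without the libraries with fewest reads, DMSO replicate 2 and TBT replicate 5. Without DMSO replicate 1 as well they turned to 0.42 and 0.43.

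In the P6 MBD data, 359 windows of 100 bp had their centre in an RLTR13 locus in each of the 2 tables, in 271 loci in F1 and 278 in F3. Total counts were 701493 to 1913350 per F1 library and 1105120 to 1556380 per F3 library. The median level of RLTR13 windows was 6.76 CPM in F1 and 6.71 in F3, against 4.62 and 3.78 in windows of other LTR loci and 5.00 and 3.86 outside LTR loci. RLTR13 windows also had more CpG sites (median 1 against 0). At 0 to 2 CpG sites the medians in F1 were 5.91 CPM for RLTR13 and 4.26 for other LTR windows, and at 3 to 5 CpG sites 14.6 and 13.

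TBT and DMSO did not separate in these windows. The median of the RLTR13 windows per library was 6.67 ± 0.40 CPM (n = 3) in F1 DMSO and 6.55 ± 0.22 (n = 4) in F1 TBT libraries, and 6.38 ± 0.29 (n = 5) and 6.48 ± 0.41 (n = 7) in F3. None of 115 RLTR13 windows tested in F1 and none of 162 in F3 passed the edgeR quasi-likelihood test (0.0318% and 0% of all windows tested did), with 9 and 8 at an unadjusted p under 0.05 (5.01% and 5.19% of all windows) and 3 and 1 by DESeq2 at that p (1.64% and 1.92%). The window with the lowest p for a gain in F1 was in a B3 locus at chr4:64931701-64931800, 192 kb from Pappa, at 17.1 ± 4.79 CPM in DMSO and 30.9 ± 1.75 in TBT (FDR 0.937), and that for a loss was in a D5 locus at chr7:22893001-22893100, at 36.9 ± 5.82 and 24.0 ± 12.3 CPM (FDR 0.937). The B3 window holds 3 CpG sites and the D5 window 0, so the D5 window itself has no CpG site that could lose methylation. In F3 they were in a B1 locus at chr17:40518901-40519000, 0.984 kb from Esp8, at 21.4 ± 5.71 and 29.6 ± 4.00 CPM, and in a D2 locus at chr4:35725301-35725400, in an intron of Lingo2, at 23.5 ± 2.11 and 16.8 ± 3.04 CPM (both FDR 0.940).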

How the data were processed

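RNA of FACS-sorted cells was reverse transcribed with oligo(dT) (SMARTer kit) and sequenced as paired reads, which the authors trimmed with Trim Galore and aligned to GRCm38/mm10 with STAR. For mERVs, the authors counted reads at RepeatMasker LTR loci with a modified ERVmap and deposited CPM after trimmed mean of M values (TMM) scaling, a normalized signal per locus and library. The treatment of reads that map to several places is not given in the sources used here. Divided by the value of 1 read in their library, 100% of the values above 0 were whole to within 0.05 reads, so whole reads could be recovered. The MBD tables that the authors deposited hold raw read counts in windows of 100 bp, with a further column that counts each window's CpG sites, and no normalization for CpG density or input. Their QSEA analysis was not repeated.

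Groups follow the labels, and each of the 81 libraries was 1 replicate. LTR loci whose mean reached 5 units, and totals per species, entered limma 3.58.1 with a trended variance (R 4.3.3) on the scale log2(value + 1 unit), 1 unit being the median over the libraries of the value of 1 read. For MBD, filterByExpr chose the windows, and edgeR 4.0.16 tested their TMM-scaled counts by quasi-likelihood. The Benjamini-Hochberg FDR of 0.05 was taken over all loci, species or windows. A fold against a group without reads was taken against a floor of 3 reads per library, which covers counting error only. Differences are on the log2(value + 1 unit) scale, which understates those of low loci. The TBT contrasts used the libraries of 1 population, and P5 against P4 used 4 groups with a shared spread.

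Alternatives were a minimum mean of 20 units or none, pseudocounts of 0.25 and 4 units, median-ratio scaling or a common library total, the quasi-likelihood and likelihood ratio tests of edgeR and DESeq2 1.42.0 on recovered reads, each library left out in turn, F1 P6 cells without TBT replicates 7 and 8, F3 germline cells without the 4 libraries with fewest reads, and the number in the label as a replicate block. Totals of loci tested singly for P5 against P4, and totals without the doubted libraries for P5 against P4 or of loci outside genes, and F3 fits without the 5 germline libraries with germ cell marker sums under 5000 CPM, were added after seeing the data. In tests of the scripts on simulated data, 200 loci were changed. Genes and sequences came from the GENCODE annotation and the GRCm38 genome. Tables were handled with the data.table package (version 1.17.8), Python 3.11.15, numpy 2.4.6 and pandas 2.3.3, and figures drawn with matplotlib 3.10.9.

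The members, lists and tests were chosen with earlier results of these data known. Named were, per letter, the species with most loci and the highest total, per population the species total with the lowest p, the 3 loci outside and the 2 inside genes with the highest mean, the loci past the FDR for TBT (otherwise the lowest p in each direction), and for P5 against P4 up to 3 higher and 3 lower loci outside and 2 and 2 inside genes with the largest change whose groups did not overlap. The remaining called loci outside genes, and motif and CpG examples, were named after their values were seen.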

Additional observations from a re-analysis of the deposited data

Results flagged for a closer look

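Of 52 groups of 4 to 10 libraries examined for a library far from the others by Dixon's test, 3 had one, where chance gives about 1 in 20 for normally distributed values. In F1 P4 TBT cells, replicate 45-3 had an RLTR13 share of LTR signal outside genes of 1.64%, and the next library 1.33%. At the RLTR13C3 locus near Lrrc23 (chr6:124783420-124784295), F1 P5 TBT replicate 47-3 stood at 8.14 CPM and the next library at 4.39, with all 7 TBT libraries above the 4 DMSO libraries without reads. At the RLTR13C2 locus near Cic (chr7:25265887-25266414), F1 P4 DMSO replicate 43-5 stood at 1.07 CPM (4 reads) and the other 4 libraries at 0. With a single library above 0 the gap equals the range, so this flag was fixed in advance. No explanation of these values was tested.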

How the results depend on the processing

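Most calls lay on the other side in 2 cases. In F1, a mean of at least 20 units gave 30 loci for P5 against P4 (9 higher, 21 lower; 14.3%, against 21.4% of all loci), and totals of the loci tested singly gave 7 (2 higher, 5 lower), an alternative added after seeing the data. The counts of RLTR13 totals for TBT and of MBD windows stayed at 0 under all alternatives, as did the counts of loci for TBT in F1 P6 and F3 P4 cells. For TBT the likelihood ratio test of edgeR called 1 locus in F1 P4 (0.0971% of all loci passed), 7 in F1 P5 (0.319%), 51 in F3 P5 (9 higher, 42 lower; 3.03%) and 4 in F3 P6 cells (0.32%), and DESeq2 called 3 in F1 P5 (0.114%) and 0 in F3 P6 cells (0.0963%). In F1 P5 cells no filter gave 22 loci (0.202% of all) and a mean of at least 20 units 0. With 1 library left out the counts were 1 to 6 in F1 P5 cells (6 without DMSO replicate 48-4, 3 without DMSO replicate 43-5 or TBT replicate 47-5, 2 without DMSO replicate 43-4) and 1 to 2 in F3 P6 cells (2 without DMSO replicate 2, DMSO replicate 3 or TBT replicate 6).

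For P5 against P4 in F1, libraries left out gave 41 to 62 loci, beside 57 in the main fit (12.6% of all loci passed there). The share over all loci in the fits with a library left out is not given here. The F1 totals that passed numbered 13 with a common total per library (39% of all totals), 12 with median-ratio scaling (27.6%), 15 outside genes only (69.1%), 10 with the quasi-likelihood test (41.4%), the likelihood ratio test (40%) and DESeq2 (42.8%), and 3 to 7 with a library left out (3 without replicate 43-4 of P4 or P5, or 44-1 of P5). The test of the TBT difference in P5 minus that in P4 gave 1 locus in F1 with a pseudocount of 4 units, no filter, the likelihood ratio test or DESeq2, and 1 in F3 with the likelihood ratio test. In F3, P5 against P4 gave 1 locus with a pseudocount of 4 units or median-ratio scaling, 95 with the likelihood ratio test (6.88% of all loci passed), 39 with DESeq2 (4.34%), 0 to 2 with a library left out (2 without P5 TBT replicate 5) and 12 (11 higher, 1 lower; 1.55% of all) without the 4 libraries with fewest reads. The F3 totals numbered 1 with a common total (9.6% of all totals), 6 with median-ratio scaling (12.3%), 10 outside genes only (29.7%), 1 with the quasi-likelihood test (10.2%), 5 with the likelihood ratio test (13%), 6 with DESeq2 (18%) and, without the 4 libraries with fewest reads, 4 over all loci (24.4%) and 13 outside genes (37.4%). Without the 5 libraries with low germ cell marker sums, an alternative added after seeing the data, 21 loci (1.85% of all), 2 totals (11.1%) and 3 totals outside genes (10.3%) passed for P5 against P4 in F3. Except for the filters and fewer libraries, whose construction changes what is tested, the cause was not tested.

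Scaling moved the median of all loci for P5 against P4 from -0.10 to 0.02 (F1, common total) and from -0.51 to 0.09 (F3, median-ratio scaling), and for TBT in F3 P4 cells from -0.69 to -0.38. That last median was 0.06 with DESeq2 and 0.37 without TBT replicates 5 and 9, and over the RLTR13 loci it moved from -0.51 to 0.14 and 0.36. P4 and P5 libraries with the same number in their labels correlated at -0.01 to 0.28 in F1 (5 of 11 highest with their own number) and at -0.09 to 0.46 in F3 (4 of 9), and whether an equal number marks one cell suspension is not stated in the sources used here. With the number as a replicate block, 107 loci passed in F1 (58 higher, 49 lower; 18.9%, against 20.6% of all loci) and 1 in F3 (0.328% of all), and 10 totals in F1 (7 higher, 3 lower; 52.3% of all totals passed). Depth limits F3 germline cells most, where 4 libraries held 246520 to 1606422 reads.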
